A study of Mus musculus with 6 samples.

Results

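KRAB zinc finger gene clusters are stretches of the mouse genome in which genes for one family of DNA-binding repressors lie side by side. The 3 clusters described here were fixed by their coordinates in build mm9, without use of any measured value. They are chromosome 2, 175500001 to 177500000, chromosome 4, 145000001 to 147000000, and chromosome 13, 66300001 to 67900000. Cut into 10 kb windows they comprise 560 members, 200 on chromosome 2, 200 on chromosome 4 and 160 on chromosome 13, of 264198 windows on chromosomes 1 to 19, X and Y. Each cluster was set against its flanks, 3 Mb on each side, which held 600 windows per cluster.

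The series holds 6 read libraries from C57Bl/6 mouse embryonic stem (ES) cells grown with leukaemia inhibitory factor (LIF) and no feeder layer. The libraries were 1 H2A.B chromatin immunoprecipitation (ChIP) library made with a home-made rabbit antibody, 3 libraries of methylated DNA immunoprecipitation (MeDIP) made with the mouse 5-methylcytosine (5mC) antibody 33D3, 1 rabbit IgG ChIP library and 1 mouse IgG MeDIP library. No library comes from treated, mutant or differentiated cells, and all groups share strain and culture. Separate cultures are not stated for the 3 5mC libraries, so p-values over them measure only the spread between these samples, which may be technical, and the other 3 groups had no replicate. For both IgG libraries one label field names the H2A.B antibody, and the title and antibody field were followed. Reads from immunoprecipitated DNA carry no expression values, so the cell type was not checked against markers.

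KRAB zinc finger proteins read DNA with a row of C2H2 zinc fingers and carry a KRAB domain that recruits TRIM28 (KAP1). TRIM28 in turn brings the histone methyltransferase SETDB1, which deposits H3K9me3, and in mouse ES cells many of the targets are endogenous retroviruses. The genes multiplied by local duplication, so that neighbouring copies can be nearly identical in sequence, and reads from such copies are hard to place. The histone variant H2A.B is shortened at its C-terminal end relative to canonical H2A and is known to loosen nucleosomes. 5mC is the methylated base of CpG sites, and MeDIP recovers more DNA where methylated CpG is dense.

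The sequences below show how alike the promoters of 2 genes of one gene run can be. The pairs are the extremes of their runs and need not be adjacent genes. They are promoters, 250 bases before to 50 bases after the gene start, from RefSeq on build GRCm38.p6, and capitals mark the bases that differ from the partner at the same position. No gaps were allowed, so a shared stretch that is shifted between partners is marked as differing. This occurs at the start of the chromosome 4 and chromosome 13 pairs, whose likeness is therefore understated. Their coordinates belong to that build, are not mm9 coordinates, and were not set beside the reads. Gene order in the same table gave the names, and the gene runs were not placed in mm9. The table does not annotate the KRAB domain, so the label of the clusters was checked by gene symbols alone. Between Edn3 and Phactr3 on chromosome 2 it lists 80 genes, 32 of them protein-coding, of which 9 carry a Zfp symbol (Zfp968, Zfp965, Zfp966, Zfp967, Zfp973, Zfp970, Zfp972, Zfp971 and Zfp931). Between Tnfrsf8 and Miip on chromosome 4 it lists 82 genes, of which 19 are protein-coding and 17 of these have zinc finger symbols. A further 56 genes of this run are typed as pseudogenes, against 25 in the chromosome 2 run and 8 in the chromosome 13 run. Between Ptdss1 and Mtrr on chromosome 13 there are 46 genes, 27 of them protein-coding and 25 of these with zinc finger symbols. In each gene run the pair of promoters with the most identical bases is shown, the first in the table where pairs tie.

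On chromosome 2, Gm14308 (chr2:176636270-176636569, minus strand) and Gm14434 (chr2:176486700-176486999, minus strand), both genes without a functional name, had the same base at 300 of 300 positions, so no base is in capitals and the sequence of one stands for both.
Gm14308: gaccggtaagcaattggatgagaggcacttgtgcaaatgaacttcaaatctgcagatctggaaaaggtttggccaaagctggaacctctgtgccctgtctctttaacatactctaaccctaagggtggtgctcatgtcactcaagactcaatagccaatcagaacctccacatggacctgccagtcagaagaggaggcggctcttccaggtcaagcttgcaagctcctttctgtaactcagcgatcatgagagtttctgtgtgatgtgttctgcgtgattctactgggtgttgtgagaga
On chromosome 4, Rex2 (chr4:147021600-147021899, plus strand) and Zfp600 (chr4:146156577-146156876, plus strand), both zinc finger genes, differed at 4 of 300 positions.
Rex2: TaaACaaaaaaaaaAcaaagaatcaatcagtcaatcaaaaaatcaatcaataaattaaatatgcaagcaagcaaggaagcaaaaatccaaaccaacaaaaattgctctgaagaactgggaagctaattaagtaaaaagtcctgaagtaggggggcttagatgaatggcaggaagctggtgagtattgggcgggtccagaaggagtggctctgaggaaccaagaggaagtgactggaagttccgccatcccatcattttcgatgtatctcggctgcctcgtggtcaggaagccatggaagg
Zfp600: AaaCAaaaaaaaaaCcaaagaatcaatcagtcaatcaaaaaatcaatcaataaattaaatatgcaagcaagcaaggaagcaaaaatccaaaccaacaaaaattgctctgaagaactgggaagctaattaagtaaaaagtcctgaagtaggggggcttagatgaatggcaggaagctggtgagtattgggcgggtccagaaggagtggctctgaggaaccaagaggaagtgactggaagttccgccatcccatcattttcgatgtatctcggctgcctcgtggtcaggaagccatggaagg
On chromosome 13, Rsl1 (chr13:67172932-67173231, plus strand), a regulator of sex-limited liver genes, and Zfp429 (chr13:67399718-67400017, minus strand) differed at 53 of 300 positions, an identity of 82.3% without gaps.
Rsl1: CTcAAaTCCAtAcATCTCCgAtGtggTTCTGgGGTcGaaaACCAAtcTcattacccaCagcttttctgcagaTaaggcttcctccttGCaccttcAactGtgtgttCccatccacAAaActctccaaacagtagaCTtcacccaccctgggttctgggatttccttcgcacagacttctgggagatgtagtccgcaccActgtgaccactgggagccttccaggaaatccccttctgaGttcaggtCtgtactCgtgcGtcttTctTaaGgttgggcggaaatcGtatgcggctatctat
Zfp429: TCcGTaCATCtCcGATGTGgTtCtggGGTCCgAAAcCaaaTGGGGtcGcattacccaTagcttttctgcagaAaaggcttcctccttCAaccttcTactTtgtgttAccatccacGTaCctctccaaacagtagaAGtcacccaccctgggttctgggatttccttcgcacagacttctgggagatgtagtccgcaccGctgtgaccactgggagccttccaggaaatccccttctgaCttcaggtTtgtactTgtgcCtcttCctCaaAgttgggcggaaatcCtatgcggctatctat

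The promoters of the 3 gene runs recurred to very different degrees. Each promoter was cut into all its stretches of 42 or 50 bases, the read lengths of these libraries, and a stretch counted as recurring when it was found, on either strand, at another position among all promoters of the table. In the chromosome 2 run, 31 coding genes had a promoter sequence, and the median gene had 99.2% of its 42-base stretches elsewhere. More than 50% of the stretches recurred in 27 of these 31 genes, among them Zfp966, Zfp967, Zfp968, Zfp970 and Zfp973, for which 100% recurred. The other 4 genes, Zfp972 among them, had 0%. In the chromosome 4 run, with 14 genes, the median was 18.0%, and 4 genes were above 50%: Rex2 (97.7%), Zfp600 (94.2%), Zfp987 (54.4%) and Zfp534 (52.9%). In the chromosome 13 run, with 24 genes, the median was 0, no gene was above 50%, and the highest value was 13.1% at Rsl1. Among 17393 other protein-coding genes the median was also 0, and 5.32% were above 50%. With 50-base stretches the medians were 99.2%, 7.57% and 0. Recurrence outside promoters was not analysed here.

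**Figure D1:**
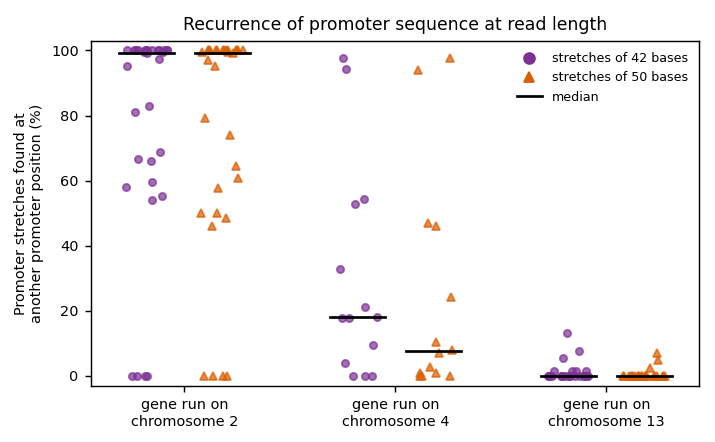
Percent of the 42-base (circles) and 50-base (triangles) stretches of each promoter that were found at another promoter position, for the coding genes of the 3 gene runs; each mark is a gene and bars are medians. The chromosome 2 genes sit mostly near 100%, those of chromosome 4 are spread with a median of 18.0% at 42 bases, and those of chromosome 13 lie at or below 13.1%.

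The promoters also held few CpG. The median number of CpG in 300 bases was 4 in the chromosome 2 run (1 to 5), 5 in the chromosome 4 run (3 to 16) and 8 in the chromosome 13 run (3 to 16), against 13 for the other coding genes. The density of CpG in the rest of the clusters was not analysed here.

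Not all of a cluster could be read. A 10 kb window was called covered when at least 1 read of any library started in it. On chromosome 2 188 of 200 windows were covered, on chromosome 4 183 of 200 and on chromosome 13 160 of 160. Together 5.18% of the cluster windows were uncovered, against 0.667% of the flank windows and 3.09% of the genome's windows. The uncovered windows of the clusters lay in runs. On chromosome 2 they were 176000001 to 176040000, 176340001 to 176380000 and 177400001 to 177440000, of 4 windows each. On chromosome 4 they were 145490001 to 145540000, of 5 windows, and 145780001 to 145820000, 145970001 to 146010000 and 146270001 to 146310000, of 4 windows each. Whether these runs are assembly gaps was not analysed here. Densities below are per covered window, except values of 100 kb blocks, which are sums per block.

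Depth differed widely between the libraries. Counted once per chromosome, 5′ end and strand, H2A.B ChIP held 8053559 distinct reads, the 5mC libraries 1396972, 1893285 and 803580 in replicates 1, 2 and 3, IgG ChIP 539303 and IgG MeDIP 124157. Inside the clusters this left 21914 distinct reads of H2A.B, 2571, 4376 and 2145 of 5mC, 1549 of IgG ChIP and 245 of IgG MeDIP. H2A.B and 5mC replicate 1 came from lane 3 of one flow cell, with 42 bp reads. 5mC replicate 2 and IgG MeDIP came from lane 1 of another flow cell, and 5mC replicate 3 and IgG ChIP from its lane 2, all with 50 bp reads. The ChIP libraries were made with 20 PCR cycles and the MeDIP libraries with 15. The 50 bp lists had 2.27% to 3.83% of their reads on unplaced contigs and the 42 bp lists had 0 reads there. The lists of 5mC replicates 2 and 3 consist of 4 and 3 sorted blocks placed end to end. The third block of replicate 2, 201263 reads, is the whole IgG MeDIP list and was removed. What the other blocks are is not given in the sources used here. In replicate 2 the last block held 875 of its 373112 reads in the clusters and the first 2533 of 2269446. A difference between H2A.B and its IgG control therefore cannot be told apart from one of flow cell, read length or list content. All intervals below are exact 95% intervals (Clopper-Pearson, or exact conditional for a ratio of ratios) and cover counting error only, since PCR copies without molecular identifiers are not independent molecules.

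The first comparison asked whether a cluster differed from its flanks in read density, library by library. The 3 clusters gave 3 different answers. The chromosome 2 cluster held fewer reads than its flanks in 6 of 6 libraries. The chromosome 4 cluster held more in H2A.B, IgG ChIP and 5mC replicate 3 and fewer in 5mC replicate 1, and the intervals of 5mC replicate 2 and IgG MeDIP included 1. The chromosome 13 cluster was close to its flanks in H2A.B and above them in IgG ChIP and 5mC replicate 3, by an amount that depended on the flank length. The flanks themselves were not at the genome's mean density per covered window. Over the 6 libraries the chromosome 2 cluster stood at 50.4% to 73.0% of that mean and its flanks at 106% to 176%. The chromosome 4 cluster stood at 125% to 220% and its flanks at 118% to 186%. The chromosome 13 cluster stood at 76.1% to 130% and its flanks at 89.3% to 114%.

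In the chromosome 2 cluster H2A.B stood at 2.63 CPM (counts scaled to library size) per 10 kb window, against 5.72 CPM in the flanks, a ratio of 0.460 (0.444 to 0.475). The 5mC ratios were 0.286 (0.261 to 0.313), 0.478 (0.446 to 0.511) and 0.668 (0.601 to 0.742) in replicates 1, 2 and 3, a mean of 0.477 ± 0.191 (SD, n = 3). IgG ChIP stood at 0.689 (0.604 to 0.783) and IgG MeDIP at 0.464 (0.349 to 0.606). Every interval lay below 1, and the antibody libraries and the IgG libraries overlapped in range. With flanks of 1 Mb the ratios were nearer to 1, at 0.623 (0.599 to 0.648) in H2A.B, 0.495, 0.664 and 0.831 in 5mC replicates 1, 2 and 3, 0.825 in IgG ChIP and 0.779 (0.551 to 1.10) in IgG MeDIP, and the IgG MeDIP interval then included 1. Window by window, 186 of 188 covered windows held fewer H2A.B reads than the median flank window, which held 47. The cluster windows held 3 to 57 H2A.B reads with a median of 21.

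In the chromosome 4 cluster H2A.B stood at 8.58 CPM per window, against 5.80 CPM in the flanks, a ratio of 1.48 (1.45 to 1.51). The 5mC ratios were 0.748 (0.705 to 0.793), 1.05 (0.996 to 1.10) and 1.55 (1.44 to 1.66), a mean of 1.11 ± 0.404 (SD, n = 3). IgG ChIP gave 1.81 (1.66 to 1.98) and IgG MeDIP 0.922 (0.740 to 1.14). IgG ChIP, made with no specific antibody, had the highest value of the 6 libraries, and the 3 5mC libraries fell on both sides of 1. Of the 183 covered windows, 138 held more H2A.B reads than the median flank window and 142 held more IgG ChIP reads, whereas 120 held fewer reads of 5mC replicate 1.

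The chromosome 4 values depended on the side taken as reference. Against the left flank alone H2A.B stood at 2.00 (1.95 to 2.06) and against the right flank alone at 1.18 (1.15 to 1.20). 5mC replicate 1 stood at 1.29 against the left flank and 0.529 against the right. IgG MeDIP stood at 1.35 (1.04 to 1.75) against the left and 0.703 (0.557 to 0.881) against the right, and 5mC replicate 2 at 1.52 and 0.801 (0.760 to 0.844), so both changed sides of 1. 5mC replicate 3 stood at 1.88 and 1.32 and IgG ChIP at 2.06 and 1.62, above 1 on either side. 5mC replicate 2 was also below 1 with the first block of its list alone, at 0.953 (0.888 to 1.02), and over all windows, at 0.964 (0.917 to 1.01).

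In the chromosome 13 cluster H2A.B stood at 4.10 CPM per window, against 4.14 CPM in the flanks, a ratio of 0.992 (0.962 to 1.02). The 5mC ratios were 0.833 (0.764 to 0.906), 0.966 (0.908 to 1.03) and 1.16 (1.06 to 1.27), a mean of 0.985 ± 0.163 (SD, n = 3). IgG ChIP gave 1.29 (1.15 to 1.44) and IgG MeDIP 1.04 (0.789 to 1.35). With flanks of 1 Mb H2A.B stood at 0.943 (0.910 to 0.978), IgG ChIP at 1.10 (0.966 to 1.26) and 5mC replicate 3 at 0.971 (0.873 to 1.08), so that neither of the last 2 was then above its flanks by more than counting error. The near-equality in H2A.B hid a difference between the 2 parts of the cluster. Its first 80 covered windows held 1.19 (1.15 to 1.24) times the flank density and its last 80 held 0.790 (0.755 to 0.826). The same 2 parts stood at 0.956 and 0.710 in 5mC replicate 1, 1.30 and 0.637 in replicate 2, 1.43 and 0.881 in replicate 3, 1.5 and 1.08 in IgG ChIP and 1.41 and 0.664 in IgG MeDIP. All 6 libraries were lower in the second part.

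Across the 3 clusters the libraries kept part of their order. 5mC replicate 1 had the lowest ratio and IgG ChIP the highest in each cluster, and 5mC replicate 3 had the highest of the 5mC ratios in each. 5mC replicate 1 over replicate 3, as a ratio in the cluster over the same ratio in the flanks, was 0.429 (0.373 to 0.493) on chromosome 2, 0.483 (0.440 to 0.530) on chromosome 4 and 0.720 (0.635 to 0.816) on chromosome 13. The part of read length, flow cell and alignment in that difference was not tested.

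**Figure D2:**
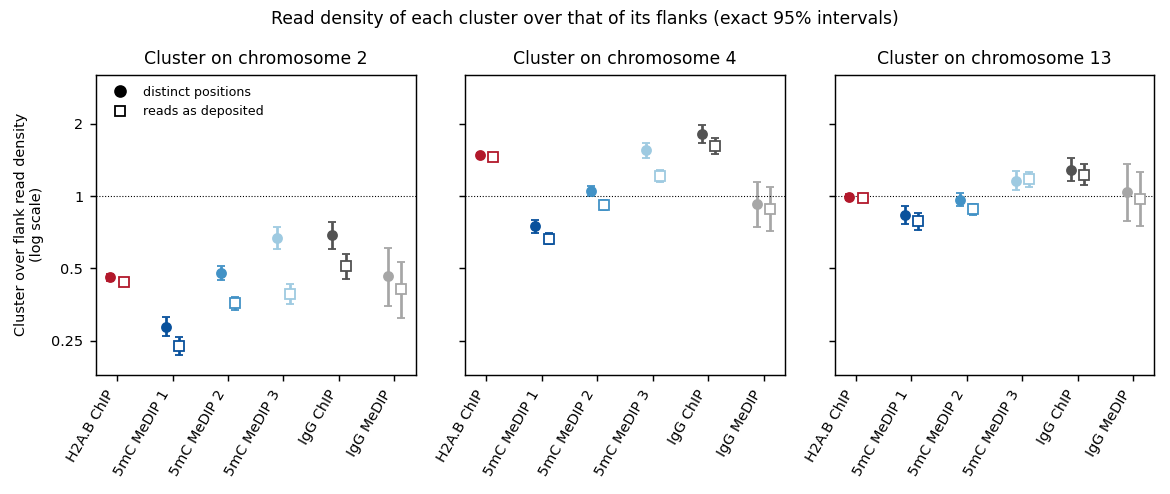
Read density in each cluster divided by that in its flanks (log axis), for each of the 6 libraries, with distinct positions as filled circles and reads as deposited as open squares; bars are exact 95% intervals. All libraries lie below 1 on chromosome 2, H2A.B lies at 1.48 on chromosome 4 with IgG ChIP above it at 1.81, and H2A.B lies at 0.992 on chromosome 13.

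With reads as deposited, in which PCR copies count each time, the ratio was lower in 17 of 18 pairs of cluster and library and stayed on the same side of 1 in 16. H2A.B moved little, to 0.440 on chromosome 2, 1.45 on chromosome 4 and 0.979 on chromosome 13. 5mC replicate 3 moved most, to 0.391 on chromosome 2 and 1.21 on chromosome 4, and stood at 1.17 on chromosome 13. 5mC replicates 1 and 2 became 0.238 and 0.359 on chromosome 2, 0.665 and 0.916 on chromosome 4, and 0.786 and 0.879 on chromosome 13. IgG ChIP became 0.511, 1.62 and 1.23 on chromosomes 2, 4 and 13, and IgG MeDIP 0.409, 0.886 and 0.976. The pairs that crossed 1 were 5mC replicate 2 on chromosome 4 and IgG MeDIP on chromosome 13.

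The clusters held fewer repeated reads per position than their flanks. Summed over the clusters, a distinct position had 1.02 reads of H2A.B in the clusters against 1.05 in the flanks, and 1.23 ± 0.149 against 1.48 ± 0.264 reads of 5mC (SD, n = 3). IgG ChIP had 1.18 against 1.36 and IgG MeDIP 1.04 against 1.12. The cluster value was the lower one in 17 of 18 pairs of cluster and library, the exception being 5mC replicate 3 on chromosome 13 with 1.57 against 1.54. Genome-wide the values were higher still, at 1.15 for H2A.B, 2.51, 2.12 and 1.91 for 5mC, 1.47 for IgG ChIP and 1.56 for IgG MeDIP.

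Large piles of reads at one position held a smaller share of the reads in the chromosome 2 and 4 clusters than in their flanks in 5mC replicate 3, and not in the chromosome 13 cluster. 5mC replicate 3 had 1 position with at least 10 reads in the chromosome 2 cluster, with 7.24% of its reads there, against 40 positions with 34.7% in the flanks. On chromosome 4 it had 8 such positions with 9.86% in the cluster, against 31 with 29.2% in the flanks. On chromosome 13 it had 10 positions with 23.9% of its reads in the cluster and 21 with 22.4% in the flanks, and the highest pile of the clusters, 46 reads at one position, lay there. IgG ChIP had 4 such positions in the chromosome 4 cluster, with 5.71% of its reads, against 8 with 6.08% in the flanks, and none in the other clusters. H2A.B, 5mC replicate 1 and IgG MeDIP had no position with at least 10 reads in any of the 3 clusters.

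**Figure D3:**
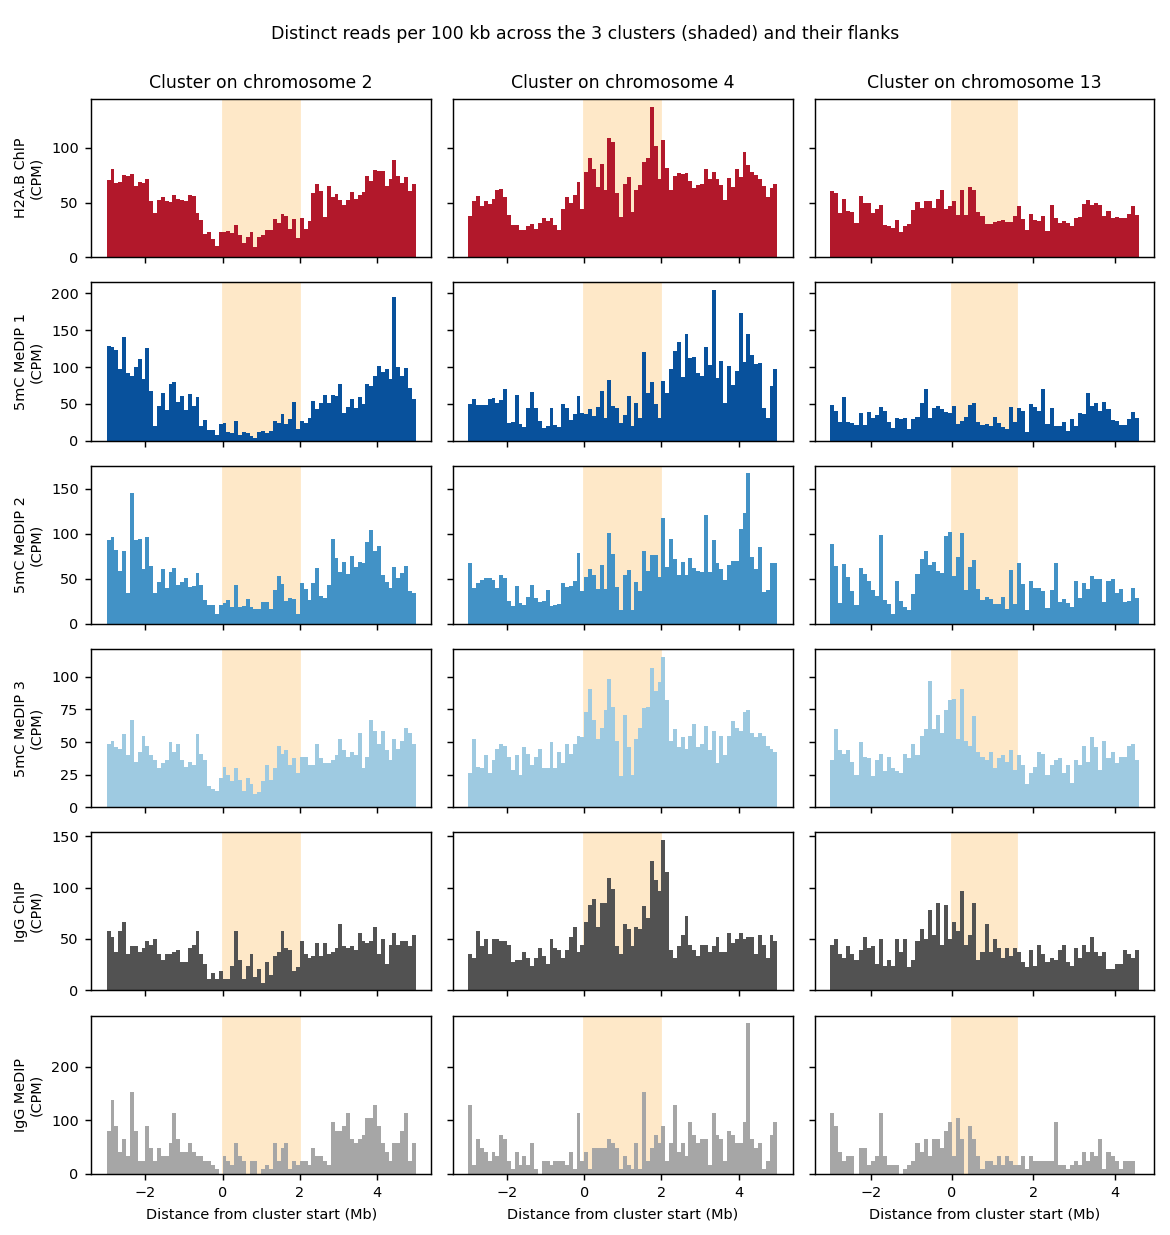
Distinct reads in 100 kb blocks, scaled to library size (vertical axes, CPM) against the distance in Mb from the start of each cluster (horizontal axes), for the 6 libraries in rows and the 3 clusters in columns; shading marks the cluster. The chromosome 2 cluster lies in a trough that reaches past its left edge in every row. The chromosome 4 cluster is raised in H2A.B, 5mC MeDIP 3 and IgG ChIP. The chromosome 13 cluster is higher in its first part than in its second.

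At 100 kb the chromosome 2 trough was continuous. All 20 blocks of the cluster lay below the median flank block in H2A.B, 5mC replicate 1 and 5mC replicate 2, with 17 of 20 in 5mC replicate 3, 18 in IgG ChIP and 17 in IgG MeDIP. H2A.B blocks ranged over 9.06 to 39.6 CPM with a median of 23.6, against a flank median of 58.3 CPM. Block values were not corrected for uncovered windows, and the block with 9.06 CPM had only 6 windows covered. Density was also low just outside both edges, and left of the cluster it was lower than inside it in every library. In the 0.5 Mb just left of the cluster H2A.B stood at 0.331 times the rest of the flanks, the 5mC replicates at 0.246, 0.342 and 0.491, IgG ChIP at 0.415 and IgG MeDIP at 0.246. In the 0.5 Mb just right of it the values were 0.710 in H2A.B, 0.463, 0.685 and 0.854 in 5mC, 0.890 in IgG ChIP and 0.453 in IgG MeDIP. Per window the left edge held 2.05 CPM in H2A.B, 1.88, 2.16 and 2.19 in 5mC, 1.81 in IgG ChIP and 1.58 in IgG MeDIP. In the same order the cluster held 2.63, 1.97, 2.78, 2.83, 2.85 and 2.66 CPM.

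On chromosome 4, 16 of 20 blocks lay above the flank median in H2A.B, 17 in 5mC replicate 3 and 17 in IgG ChIP, whereas 15 of 20 lay below it in 5mC replicate 1. The 2 parts of the cluster were alike, at 1.51 for the first 88 covered windows and 1.45 for the last 95 in H2A.B. Density was high just past the right edge in all 6 libraries, with the next 0.5 Mb at 1.44 times the rest of the flanks in H2A.B, 1.37, 1.44 and 1.54 in the 5mC replicates, 1.74 in IgG ChIP and 1.28 in IgG MeDIP. In 5mC replicate 1 this edge, at 9.99 CPM per window, was above the cluster's 5.44 CPM. On chromosome 13 the 0.5 Mb left of the cluster was likewise set against the rest of both flanks combined. It stood at 1.24 in H2A.B, 1.22, 1.85 and 1.74 in 5mC, 1.69 in IgG ChIP and 2.20 in IgG MeDIP.

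The H2A.B library was deep enough to look inside the windows. Of the 1 kb bins in covered windows of the chromosome 2 cluster, 19.8% held no H2A.B read, against 5.44% in its flanks and 11.9% genome-wide. Reads scattered evenly at the same density would leave 12.0% empty in the cluster, 0.995% in its flanks and 4.30% genome-wide, so that more bins than this were empty in the flanks and genome-wide too. On chromosome 4 3.61% were empty, with 0.0998% at even scatter, against 4.11% in the flanks, and on chromosome 13 9.88% were empty, with 3.67% at even scatter, against 8.81% in the flanks. The chromosome 2 bins that held reads had 2.64 on average, against 4.87 in the flanks, so the lower density there came with both more empty bins and fewer reads in the others.

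Read density varies along the genome, and each cluster was placed among 1206 intervals of 2 Mb that tile chromosomes 1 to 19, X and Y, each divided by its own 3 Mb flanks. Some of these intervals overlap the clusters. In H2A.B 7.63% of the intervals were at least 1.5-fold lower than their flanks and 3.57% at least 1.5-fold higher. The chromosome 2 cluster was past the lower threshold in H2A.B, and 5 of the 1206 intervals (0.415%) were lower than it. It was past the threshold also in 5mC replicates 1 and 2 and IgG MeDIP, where 14.7%, 10.2% and 17.4% of the intervals were. It was not past it in 5mC replicate 3 and IgG ChIP, where only 0.912% and 0.995% of the intervals were, but few intervals were lower there too, 11 in 5mC replicate 3 and 16 in IgG ChIP. In IgG MeDIP 3.90% of the intervals were lower than the chromosome 2 cluster, the largest share among the 6 libraries.

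The chromosome 4 cluster was not past the 1.5-fold threshold in H2A.B, where 3.73% of the intervals were higher than it. It was past the upper threshold in 5mC replicate 3 and IgG ChIP, in which 0.663% of all intervals were in each case, and 0.580% and 0.332% of the intervals were higher than the cluster. In 5mC replicates 1 and 2 and IgG MeDIP, where 7.63%, 5.47% and 10.7% of the intervals were past the upper threshold, the cluster was not, and 77.3%, 40.8% and 56.7% of the intervals were above it. The chromosome 13 cluster was past the threshold in no library, and its most extreme place was in IgG ChIP, with 2.40% of the intervals higher. With reads as deposited the placing changed. The chromosome 4 cluster, at 1.21, was then not past the upper threshold in 5mC replicate 3, where 3.9% of the intervals were, and remained past it in IgG ChIP, where 1.82% were. The chromosome 2 cluster was then past the lower threshold also in 5mC replicate 3, where 5.72% of the intervals were, and in IgG ChIP, where 3.65% were.

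**Figure D4:**
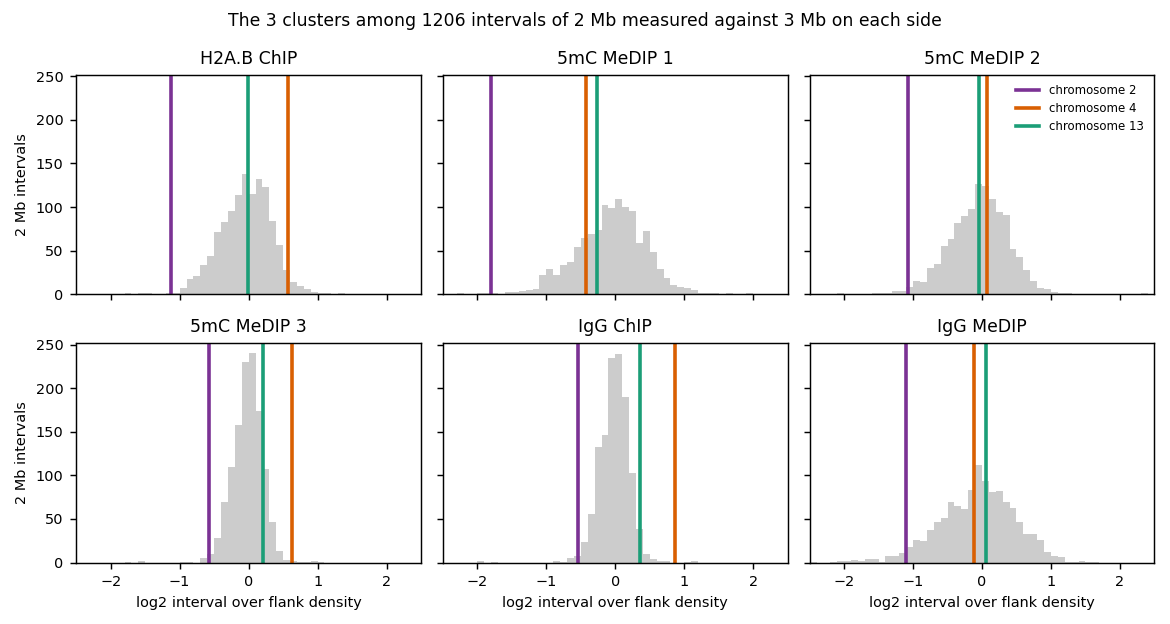
Number of 2 Mb intervals (vertical axes) by the log2 ratio of their read density to that of their flanks (horizontal axes) in each library, with the 3 clusters as coloured lines. The chromosome 2 line lies towards the left end in every library, with 0.415% of the intervals lower in H2A.B, and the chromosome 4 line lies far right in 5mC MeDIP 3 and IgG ChIP.

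The second comparison asked whether the clusters held more or less H2A.B than the IgG ChIP background did. Relative to IgG ChIP, H2A.B was lower in the clusters than in both flanks combined. In CPM, H2A.B stood at 0.923 times IgG ChIP in the chromosome 2 cluster against 1.38 in its flanks, 1.03 against 1.26 on chromosome 4 and 0.810 against 1.05 on chromosome 13. Cluster over flank this gave 0.667 (0.584 to 0.764), 0.815 (0.746 to 0.891) and 0.770 (0.687 to 0.864), and 0.766 (0.721 to 0.815) over the 3 clusters. Among the 2 Mb intervals 1.58% were lower than the chromosome 2 cluster, 12.4% lower than chromosome 4 and 6.97% lower than chromosome 13. On chromosome 4 the call rested on the right flank: the value was 0.973 (0.874 to 1.08) against the left flank alone and 0.724 (0.655 to 0.800) against the right. With reads as deposited the values were nearer to 1, at 0.860 on chromosome 2, 0.895 on chromosome 4 and 0.799 on chromosome 13. Of the 2 Mb intervals 18.7%, 26.9% and 9.29% were then lower, so the chromosome 2 cluster was no longer near the low end. The comparison is between 2 libraries with no replicate.

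The divisor decided the direction. 5mC replicate 1 shared lane and read length with H2A.B, and H2A.B over 5mC replicate 1 was 1.60 (1.46 to 1.77), 1.98 (1.86 to 2.11) and 1.19 (1.09 to 1.30) in the clusters over the flanks on chromosomes 2, 4 and 13. On chromosome 4 0.249% of the 2 Mb intervals were higher in this ratio, on chromosome 2 1.08% and on chromosome 13 16.0%. 5mC and H2A.B are different antibodies on different preparations of DNA, so this ratio is no measure of H2A.B alone. 5mC replicate 3 over IgG ChIP, a pair from the same lane, was 0.970 (0.820 to 1.15), 0.854 (0.763 to 0.956) and 0.898 (0.778 to 1.04). Of the 2 Mb intervals 34.8%, 2.57% and 8.46% were lower in this ratio. IgG ChIP over IgG MeDIP, with no specific antibody on either side, was 1.49 (1.10 to 2.03), 1.97 (1.56 to 2.49) and 1.24 (0.928 to 1.67). All pairs of this paragraph set a ChIP against a MeDIP library and so also differ in PCR cycles, 20 against 15.

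**Figure D5:**
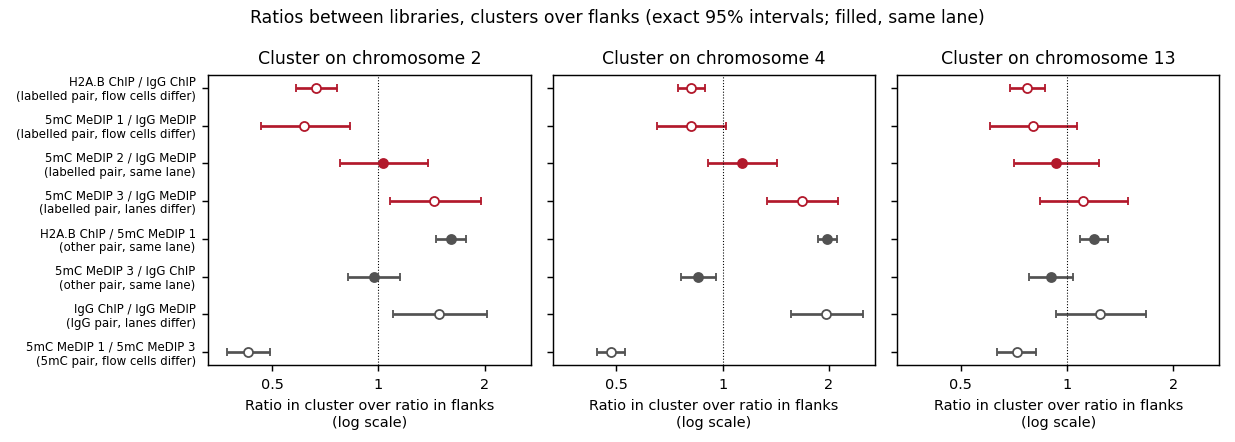
Ratio of one library to another in the cluster divided by the same ratio in the flanks (horizontal log axis), for 8 pairs of libraries in rows and the 3 clusters in columns; bars are exact 95% intervals, red marks are antibody over labelled IgG control and filled marks are pairs from the same lane. H2A.B over IgG ChIP lies below 1 in all 3 clusters and H2A.B over 5mC MeDIP 1 above 1, and the IgG pair reaches 1.97 on chromosome 4.

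Single windows were read by a rule of size. Enriched windows were those in which H2A.B stood at 1.5 times IgG ChIP or more, in CPM, and the exact lower bound of that ratio was above 1. Mirrored windows met the same conditions with the libraries exchanged. Genome-wide 0.619% of 256027 covered windows were enriched and 2.64% mirrored. In the clusters 7 of 531 covered windows (1.32%) were enriched, 1 on chromosome 2, 5 on chromosome 4 and 1 on chromosome 13, against 35 of 1788 (1.96%) in the flanks. The mirrored rule held in 18 windows (3.39%), 4 on chromosome 2, 2 on chromosome 4 and 12 on chromosome 13, against 30 (1.68%) in the flanks. The 12 of 160 windows on chromosome 13 (7.5%) compare with 2.68% in its flanks. With reads as deposited 13 cluster windows were enriched and 25 mirrored, and genome-wide 2.57% and 5.46% were. The cluster shares were then 2.45% and 4.71%, against 5.98% and 4.36% in the flanks (107 and 78 windows), so that the mirrored share was close to that of the flanks. In 100 kb windows 2 of 56 were enriched and 4 mirrored, against genome-wide shares of 9.71% and 9.52%, and 41 and 4 of 180 flank windows. IgG ChIP had a median of 1, 4 and 2 reads per window in the chromosome 2, 4 and 13 clusters, so a single window rests on few IgG reads. Even at 0 IgG ChIP reads, a 10 kb window with fewer than 57 H2A.B reads could not be called enriched. The median window held 21, 62 and 29 H2A.B reads in the 3 clusters, and the highest on chromosome 2 held 57. Enriched counts at 10 kb are therefore limited by the H2A.B reads of a window and cannot be compared directly between the clusters. In simulated 10 kb windows without a difference, all at the mean depth of both ChIP libraries, the rule labelled 0% enriched and 1.45% mirrored. Enriched and mirrored shares are therefore not directly comparable with each other. The simulated shares need not hold at the depth of each cluster, which differed.

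In each cluster the windows with the highest lower bound and the lowest upper bound of this ratio are given. The highest lower bound of the 3 clusters was that of chromosome 4, 146770001 to 146780000. It held 203 distinct H2A.B reads against 2 of IgG ChIP, a ratio of 6.80 (1.86 to 56.5), with 22, 23 and 15 reads of 5mC and 2 of IgG MeDIP. The highest on chromosome 2 was 177100001 to 177110000, with 57 H2A.B reads against 0 of IgG ChIP, and on chromosome 13 it was 66310001 to 66320000, also with 57 against 0. Taken against the 3 reads that a count of 0 allows, and with the 57 reads taken as exact, H2A.B was at least 1.27-fold higher in both. With counting error on both sides the exact lower bound of the ratio was 1.002 in both, just past the rule. The lowest upper bound belonged to chromosome 13, 67150001 to 67160000, with 25 H2A.B reads against 9 of IgG ChIP, a ratio of 0.186 (0.0840 to 0.453). On chromosome 2 it was 175800001 to 175810000, with 30 against 8 and a ratio of 0.251 (0.112 to 0.634), and on chromosome 4 145580001 to 145590000, with 93 against 16 and 0.389 (0.228 to 0.709).

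The third comparison asked whether 5mC differed from the IgG MeDIP background in the clusters. The comparison was made on log2 ratios, so that the 5mC libraries enter by their geometric mean. That mean of the cluster to flank ratio was 0.972 times the IgG MeDIP ratio on chromosome 2, 1.16 times on chromosome 4 and 0.939 times on chromosome 13, on the log2 scale -0.042, 0.21 and -0.090. On chromosome 2 the direction depends on the mean, since the arithmetic mean of 0.477 lies above the 0.464 of IgG MeDIP. The differences were smaller than the spread between the 5mC libraries on the log2 scale, SD 0.62, 0.53 and 0.24 (n = 3). In exact two-sided permutation tests over the 4 libraries p was 1 on chromosome 2 and 0.75 on chromosomes 4 and 13, and 1 for each after Benjamini-Hochberg adjustment over the 3 clusters. This design cannot reach a p below 0.25. IgG MeDIP lay below 2 of 3 5mC libraries on chromosomes 2 and 4 and below 1 of 3 on chromosome 13. With reads as deposited the log2 differences were -0.35, 0.030 and -0.066 on chromosomes 2, 4 and 13, with SD 0.38, 0.43 and 0.30. IgG MeDIP then lay below 0 of 3 5mC libraries on chromosome 2, 2 on chromosome 4 and 1 on chromosome 13. With distinct positions in the pair that shared a lane, 5mC replicate 2 over IgG MeDIP was 1.03 (0.780 to 1.38), 1.14 (0.912 to 1.42) and 0.929 (0.708 to 1.23).

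Replicate 3 set the direction on chromosome 4 and replicate 1 on the other 2 chromosomes. Without replicate 3 the log2 difference on chromosome 4 was -0.060. Without replicate 1 it was 0.29 on chromosome 2 and 0.024 on chromosome 13.

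The same libraries, thinned to 124157 distinct reads each, were compared in 1 Mb windows whose edges include those of the clusters, the last window of the chromosome 13 cluster being shorter, 67300001 to 67900000. With limma, adjusted over 2582 windows, 5mC was higher than IgG MeDIP in 0.0775% of the windows and lower in 0.0387%, and none of the 6 cluster windows was called in either direction. At an unadjusted p under 0.05 146 windows of the genome were higher and 12 lower, and none of the 6 was among them. The cluster windows had log2 differences of -0.31 ± 0.49 and -0.0036 ± 0.43 (SE) on chromosome 2, 0.41 ± 0.44 and 0.13 ± 0.44 on chromosome 4, and 0.09 ± 0.43 and 0.47 ± 0.53 on chromosome 13, each in order of position. Their smallest adjusted p in limma was 0.963. The median of the 6 was 0.11, against 0.19 over all windows. This fit takes the spread of the 5mC libraries for that of the single IgG library. On simulated data it detected 78% of 2-fold increases but only 25.3% of 2-fold decreases. The simulated libraries differed by counting error alone, whereas the 5mC libraries also differed from one another beyond it. Detection in these data may therefore be lower, and the SE of the cluster windows was 0.43 to 0.53. The absence of a call in the cluster windows says little about a 2-fold change in either direction.

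The cluster windows with the most 5mC were not shared evenly by the replicates. On chromosome 4, 146590001 to 146600000 held 86, 42 and 4 distinct reads of 5mC replicates 1, 2 and 3, or 61.6, 22.2 and 4.98 CPM, against 3 of IgG MeDIP, or 24.2 CPM, and 145690001 to 145700000 held 27, 52 and 8 against 1. On chromosome 13, 67740001 to 67750000 held 33, 51 and 9 against 1, and 66810001 to 66820000 held 15, 52 and 12 against 1. On chromosome 2, 177030001 to 177040000 held 16, 21 and 9 against 3, which at 11.2 CPM ± 0.186 (SD, n = 3) was the most even of these windows and lay below the 24.2 CPM of IgG MeDIP. The other, 177330001 to 177340000, held 33, 14 and 1 against 0. The 6 windows were chosen for their 5mC, and their values are a description. A single IgG MeDIP read stands for 8.05 CPM, so read counts of the libraries cannot be set against each other directly. The window from 146590001 held 55 H2A.B reads against 8 of IgG ChIP and that from 66810001 held 124 against 6, and neither met the rule of size.

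In 5 of the 6 windows with the most reads per position, 2 from each cluster, most of the repeats were those of 5mC replicate 3. On chromosome 2, 177260001 to 177270000 held 39 deposited reads of replicate 3 at 4 distinct positions, against 3 deposited reads at 3 positions in IgG ChIP. On chromosome 4, 145480001 to 145490000 held 38 at 9 positions and 145060001 to 145070000 28 at 8, beside 17 at 8 in replicate 2. On chromosome 13, 66490001 to 66500000 held 28 at 3 positions and 67020001 to 67030000 30 at 6. In the remaining window, chromosome 2, 175610001 to 175620000, the repeats were those of replicate 2, with 37 deposited reads at 22 positions. With distinct positions each such pile counted once per position.

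Within the clusters the libraries followed one another loosely. Over the 188 covered windows of the chromosome 2 cluster Spearman's rho of H2A.B with 5mC replicates 1, 2 and 3 was 0.190, 0.372 and 0.374, against 0.629, 0.449 and 0.288 over the 596 flank windows. With IgG ChIP it was 0.255 in the cluster and 0.211 in the flanks. Over the 183 windows of the chromosome 4 cluster H2A.B had a rho of 0.346, 0.484 and 0.593 with the 5mC replicates and 0.486 with IgG ChIP. These are descriptions across windows that share libraries, depth and base composition.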

How the data were processed

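The 6 read lists hold read positions on mm9, and the submitters' processing notes name Bowtie and FastQC without versions. The score column, which the authors deposited, held one constant value and was not used. Reads on chromosomes 1 to 19, X and Y were counted in 10 kb windows, once per chromosome, 5′ end and strand (or as deposited), and CPM divides by the library's total of such reads. The IgG MeDIP reads also listed in 5mC replicate 2 were removed from it, and 9 lines that were not whole records were left out. The coordinates of the clusters use no measured value, but the cluster members, gene lists and tests were chosen with earlier results of these data known. Densities were compared over covered windows with exact 95% intervals, 5mC and IgG MeDIP with an exact permutation test and, in 1 Mb windows thinned to equal depth (pseudocount 0.5 reads, windows under 25% of the median left out), with limma 3.58.1 in R 4.3.3 with Benjamini-Hochberg adjustment at 0.05. The limma fit and the window rule were tested on simulated data. When a 2-fold change was put in, limma detected 78% of the increases but only 25.3% of the decreases. Those simulated libraries had counting error and no further spread between replicates. For a 4-fold change at mean depth, the window rule detected 67% of the increases and 26% of the decreases. Where no change was put in, at the same depth, the rule labelled 0% of windows enriched and 1.45% mirrored. Windows are named per cluster by the highest lower and lowest upper bound of H2A.B over IgG ChIP, the 2 highest mean 5mC CPM and the 2 with most reads per position among those with at least 50 reads. Python 3.11.15, scipy 1.17.1 and pandas 2.3.3 were used. Alternatives were reads as deposited, other flanks and filters, window sizes, divisors and leaving out each 5mC replicate.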

Additional observations from a re-analysis of the deposited data

Results flagged for a closer look

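Within the 3 clusters, 254 reads of IgG MeDIP were also in the list of 5mC replicate 2, and stood out because they are signal in a list whose label names another library. They are all the IgG MeDIP reads of the clusters, and the same holds genome-wide, where 201263 of 201263 IgG MeDIP reads were in that list, so this is not a feature of the clusters. The shared reads were removed from 5mC replicate 2 before counting. How they came into that list was not tested.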

How the results depend on the processing

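Of 296 alternative values for 58 results, 204 stayed within the spread or error of the reported value, 70 moved beyond it and 22 reversed. The H2A.B density of the summed clusters over the flanks (0.982) was 0.957 with reads as deposited, 0.937 over all windows, 1.05 with 1 Mb flanks, 1.10 with the left flank and 0.888 with the right flank. IgG ChIP (1.28) was 1.11 with reads as deposited. H2A.B over IgG ChIP (0.766) was 0.865 with reads as deposited, 0.861 with 1 Mb flanks, 0.837 with the left flank and 0.709 with the right flank. With 5mC replicate 1 as the divisor it was 1.67 summed and 1.60, 1.98 and 1.19 on chromosomes 2, 4 and 13, and with 5mC replicate 3 in place of H2A.B 0.891. The summed log2 difference of 5mC and IgG MeDIP (0.090) was -0.053 with reads as deposited, -0.0037 without windows above 10 times the median, -0.018 with 1 Mb flanks and -0.65 with IgG ChIP as the divisor, which on chromosome 4 gave -0.77. It was 0.053 on chromosome 2 with the right flank and 0.043 with 5mC replicate 2 alone, and on chromosome 13 0.0063 with 1 Mb flanks and 0.098 with the left flank. With one replicate left out it ranged from -0.15 to 0.33 summed, -0.33 to 0.29 on chromosome 2, -0.060 to 0.47 on chromosome 4 and -0.21 to 0.024 on chromosome 13. The window rule gave 13 enriched windows with reads as deposited, and at 100 kb 2 enriched and 4 mirrored of 56. The limma fit called 0 windows higher and 2 lower with reads as deposited, with 4 and 12 at an unadjusted p under 0.05. With any one replicate left out it called 0 higher and 0 lower, with 69 to 110 and 5 to 11 at an unadjusted p under 0.05. Its log2 difference in the 1 Mb window of chromosome 13 from 66300001 was -0.19 with reads as deposited and ranged from -0.081 to 0.28 with one replicate left out, and that of chromosome 2 from 176500001 ranged from -0.19 to 0.25. The cause of these changes was not tested. The use of 5mC replicate 3 in place of H2A.B, IgG ChIP as the 5mC divisor and the first blocks of replicates 2 and 3 together were chosen after seeing the data. No paired analysis was possible because the groups compared share fewer than 2 replicate numbers. Depth limits IgG MeDIP most: a window with 0 reads allows 24.2 CPM there and 5.56 CPM in IgG ChIP.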
